A study of Mus musculus with 4 samples.

Results

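The genes described here are 37 genes of the interferon response and of antigen presentation by MHC class I, taken by symbol from the 56748 genes counted in the series. They were measured in nuclei from the hippocampus of male mice, which were counted in 8 pools. Mndal and Ifi203 are described apart from the other 35 in their levels, and counts over the members include both. Neuronal nuclei held 85.2% of the UMIs of Mndal and 84.7% of those of Ifi203, near the 84.4% they held of all UMIs, while 62.9% and 60.9% came from CA2/3-like nuclei alone. The remaining genes are grouped by role into receptors, kinases, STATs, interferon regulatory factors, sensors and effectors, and antigen presentation.

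Each pool held the hippocampi of 3 mice, and each condition was 1 pool. In the first experiment C57BL/6 mice were fed vehicle chow or chow with PLX5622, an inhibitor of the CSF1 receptor that depletes microglia, for 7 days before repeated social defeat (RSD). In the other, IL-1R1+/+ mice (Cre-negative) were compared with nIL-1R1-/- mice, in which Cre driven by Vglut2 deletes Il1r1 in glutamatergic neurons. In each arm of both experiments, 1 pool was from undisturbed control mice and 1 from mice defeated by a CD-1 aggressor for 2 hours a night on 6 nights, with nuclei taken 14 hours after the last defeat. The pools were named Control-Vehicle, Stress-Vehicle, Control-PLX5622, Stress-PLX5622, Con-IL-1R1+/+, Stress-IL-1R1+/+, Con-nIL-1R1-/- and Stress-nIL-1R1-/-. The control and stress pool of 1 arm are called a pair. Levels are given as CPM, which are counts of unique transcripts (UMIs) of a gene scaled to the sum of all UMIs in the same nuclei, and were never compared between genes, since they are not per length. No test was made between 2 single pools, and the intervals of such a difference hold counting error only.

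After filtering, 5858 to 8474 nuclei per pool were kept, with 7534594 to 58081835 UMIs. Both PLX5622 pools were shallow, with medians of 598 and 628 UMIs per nucleus against 1325.5 to 5012 in the other 6. No nucleus name was shared between pools. A cluster took a class name only from marker genes, and classes are written as DG-like (dentate granule), CA1-like, CA2/3-like, INH-like (inhibitory) and so on. Some clusters came mostly from 1 pool, among them an unnamed neuronal cluster with 1529 of 1951 nuclei from Con-IL-1R1+/+ and a medium spiny-like cluster with 247 of 264 from Stress-IL-1R1+/+. The part of such clusters in the differences in all nuclei and in neuronal nuclei was not tested. The microglia-like class held only 6 and 8 nuclei in the PLX5622 pools and 153 to 200 in the others. Il1r1, the targeted gene, measured 60.9 CPM in DG-like nuclei of Con-IL-1R1+/+ and 11.4 in Con-nIL-1R1-/-, and 29.8 and 8.85 in the stress pools of these genotypes. In the same order it measured 86.2, 23.4, 367 and 212 CPM in endothelial-like nuclei and 17.6, 3.42, 9.41 and 4.56 in microglia-like nuclei. Astrocyte-like nuclei had 12.8, 9.48, 3.83 and 11.5 CPM, the last 2 from 1 and 3 UMIs. The cause of the lower levels outside neurons was not tested.

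Interferons signal through paired receptor chains that carry the kinases Jak1, Jak2 and Tyk2. The kinases phosphorylate STAT proteins, and STATs with Irf9 bind interferon-stimulated response elements (ISREs) in front of target genes. Targets include sensors of foreign RNA, antiviral effectors and the machinery that loads peptides onto MHC class I. In the healthy brain most of these targets are expressed at low levels, chiefly in vascular cells and microglia, and neurons express little MHC class I.

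Mndal and Ifi203 encode PYHIN proteins, interferon-inducible nuclear proteins that bind DNA. Mndal lies on chromosome 1 at 173676539 to 173708447 and Ifi203 at 173747971 to 173770436, both on the minus strand of GRCm39. Their promoters are shown because these genes stand next to each other and had the same cell class as their highest. RefSeq start sites on GRCm38.p6, a different build from that of the counts, gave the 100 bases before the start of Mndal at chr1:173880188-173880287 and of Ifi203 at chr1:173942493-173942592, both minus strand. Capitals mark a match to an ISRE-like motif, which was searched on both strands as GAAA, any 2 bases and GAAA.
Mndal: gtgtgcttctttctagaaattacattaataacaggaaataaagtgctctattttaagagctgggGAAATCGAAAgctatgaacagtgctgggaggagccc
Ifi203: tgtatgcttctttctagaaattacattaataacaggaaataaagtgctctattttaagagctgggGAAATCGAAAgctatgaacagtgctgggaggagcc
The motif begins 36 bases before the start of Mndal and 35 bases before that of Ifi203, in a run of 96 identical bases. Aligned on the motif without gaps, 146 of 249 bases of these windows were identical (58.6%). Each gene had 2 promoter windows, of which 2 of Mndal and 1 of Ifi203 held an ISRE-like match, and the start meant here is that of the window shown. Both belong to the same gene family. Their transcripts were not compared here, and whether reads were split between them was not tested.

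Among the other members, the ISRE-like motif was also found in front of the effectors Ifit1, Isg15 and Bst2, of B2m, the light chain of MHC class I, and of Stat2. The windows below, each of 30 bases and from RefSeq starts on GRCm38.p6, show these matches in capitals. They lie at chr19:34640775-34640804 (plus strand), chr4:156200871-156200900 (minus), chr8:71537577-71537606 (minus), chr2:122147538-122147567 (plus) and chr10:128270266-128270295 (plus).
Ifit1: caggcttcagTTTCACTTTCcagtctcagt
Isg15: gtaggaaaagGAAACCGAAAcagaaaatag
Bst2: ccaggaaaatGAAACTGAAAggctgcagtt
B2m: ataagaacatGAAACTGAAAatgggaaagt
Stat2: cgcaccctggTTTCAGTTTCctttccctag
Of the 33 members with a promoter window, which runs from 250 bases before the start to 50 after it, 11 held the ISRE-like motif. It was found in 3.99% of 27025 genes and in 3.44% of 32851 windows. In Isg15 and Bst2 several matches overlap. The GAS-like motif TTCNNNGAA, also searched on both strands, was in the windows of 10 of these 33 members and of 9.55% of all genes. No promoter window was used here for Ifi27, Tap2, Nlrc5 and Parp14.

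Mndal had its highest level in CA2/3-like nuclei. Its mean there was 102.9 ± 50.0 CPM (SD, n = 8 pools), against 7.70 ± 6.29 in DG-like, 4.73 ± 3.53 in CA1-like and 7.05 ± 3.20 in INH-like nuclei. The lowest CA2/3-like pool, at 48.5 CPM, was above the highest of any of these 3 neuronal classes, at 22.96 CPM. CA2/3-like nuclei were 8.96% of all nuclei and held 2593 of 4124 Mndal UMIs (62.9%). Endothelial-like nuclei came next with 64.4 ± 44.7 CPM over 7 pools, from 14.6 to 156, a range that overlaps that of CA2/3-like nuclei.

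Ifi203 was also highest in CA2/3-like nuclei and second in endothelial-like nuclei. It measured 34.7 ± 9.49 CPM (SD, n = 8) in CA2/3-like nuclei and 13.3 ± 6.69 (n = 7) in endothelial-like nuclei. In DG-like, CA1-like and INH-like nuclei it measured 2.48 ± 1.16, 1.93 ± 1.54 and 3.24 ± 1.62 CPM. The lowest CA2/3-like pool (20.9 CPM) was above every pool of these 3 neuronal classes, which reached 5.39 CPM, and CA2/3-like nuclei held 1000 of 1643 UMIs (60.9%). Both genes had been left out of the genes used for clustering, yet both were among the 10 genes with the largest excess in the CA2/3-like cluster.

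**Figure D1:**
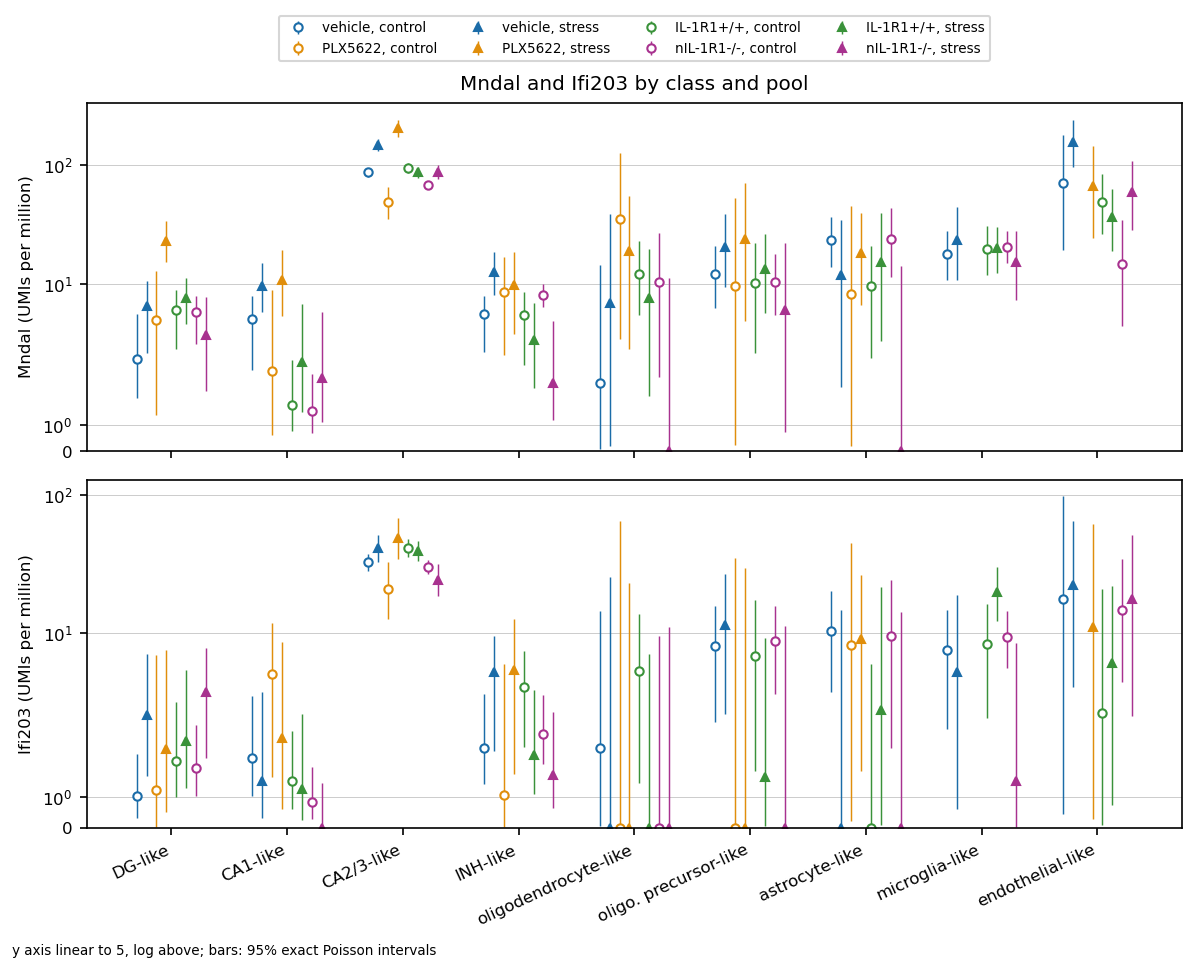
Levels of Mndal and Ifi203 (CPM) in each of the 9 cell classes compared. Points are pools (open control, filled stress) and bars 95% exact Poisson intervals, on an axis that is linear to 5 and logarithmic above. Both genes were highest in CA2/3-like nuclei, where Mndal ranged from 48.5 to 205 CPM and Ifi203 from 20.9 to 48.9 CPM.

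In CA2/3-like nuclei Mndal measured 86.6 CPM in Control-Vehicle and 146 in Stress-Vehicle, and 48.5 in Control-PLX5622 and 205 in Stress-PLX5622. The IL-1R1+/+ pair measured 94.6 (control) and 87.0 (stress), and the nIL-1R1-/- pair 67.3 and 87.6. Stress pools were thus higher in 3 of 4 pairs, the IL-1R1+/+ pair was not, and the groups overlap. The log2 difference of stress and control was 0.76 (95% interval 0.55 to 0.97) in the vehicle pair, 2.08 (1.59 to 2.60) in the PLX5622 pair, -0.12 (-0.34 to 0.09) in the IL-1R1+/+ pair and 0.38 (0.14 to 0.61) in the nIL-1R1-/- pair. Over the 4 pairs the fitted log2 difference was 0.64 ± 0.20 (SE), with an adjusted p of 0.133 in edgeR's quasi-likelihood test, and Mndal was not called. Class by class, 0.173% of all tests were called for RSD, and 0.377% of the genes tested in CA2/3-like nuclei. Without the PLX5622 pair the fitted value was 0.34. In both PLX5622 pools more nuclei that scored best for CA2/3 lay in an unnamed cluster than in this class, as given below. Mndal was called with every nucleus thinned to 500 UMIs (log2 1.12, adjusted p = 0.0276) and with no filter on low counts (0.61, adjusted p = 0.00858), where 0.934% and 1.09% of all genes tested were called.

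Ifi203 had smaller differences in the same nuclei. It measured 32.4 and 41.0 CPM in the control and stress pool of the vehicle pair and 20.9 and 48.9 in the PLX5622 pair. In the IL-1R1+/+ pair it measured 41.2 and 39.2 CPM, and in the nIL-1R1-/- pair 30.004 and 24.2. Stress pools were higher in the 2 diet pairs and lower in the 2 genotype pairs, and only the interval of the PLX5622 pair (log2 1.22, 0.38 to 2.11) lay away from 0. The fitted log2 difference was 0.15 ± 0.18 (SE, adjusted p = 0.765, edgeR).

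Between genotypes, Ifi203 was lower in nIL-1R1-/- than in IL-1R1+/+ CA2/3-like nuclei in both states, by log2 -0.46 (-0.73 to -0.18) in control pools and -0.69 (-1.16 to -0.24) in stress pools. The fitted value was -0.50 ± 0.23 (SE), with an unadjusted p of 0.0433 and an adjusted p of 0.9999 (edgeR), so it was not called. For Mndal this difference was -0.49 (-0.67 to -0.31) in control pools, and in the stress pools its difference was 0.01 (-0.25 to 0.27). With PLX5622, Mndal in these nuclei was lower in the control pool (log2 -0.84, -1.31 to -0.39) and higher in the stress pool (0.49, 0.19 to 0.78). The fitted diet difference was 0.06 ± 0.30 (SE, adjusted p = 0.997, edgeR).

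In all nuclei, Mndal measured 21.0, 12.3, 18.1 and 17.3 CPM in the control pools of the vehicle, PLX5622, IL-1R1+/+ and nIL-1R1-/- pairs and 30.2, 36.2, 17.0 and 13.1 in their stress pools. Ifi203 measured 8.3999, 6.27, 7.71 and 7.76 CPM in these control pools and 9.04, 10.2, 7.50 and 4.20 in the stress pools. Neither gene moved one way in all pairs. CA2/3-like nuclei were 11.8% and 10.3% of the control and stress pool in the vehicle pair, 7.50% and 6.85% in the PLX5622 pair, 8.02% and 8.76% in the IL-1R1+/+ pair and 11.2% and 6.82% in the nIL-1R1-/- pair. An unnamed neuronal cluster scored best for CA2/3 but at 0.351, under the limit of 0.4 for a name. It held 1485 and 1172 nuclei of Control-PLX5622 and Stress-PLX5622, against 554 and 526 named CA2/3-like. In the other pools it held 19 to 308 nuclei. Its part in these shares and in the CA2/3-like levels was not tested. In sums over all nuclei fewer nuclei of a type and less RNA per nucleus cannot be told apart.

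Levels were compared over 9 of the classes named from markers: DG-like, CA1-like, CA2/3-like, INH-like, oligodendrocyte-like, oligodendrocyte precursor-like, astrocyte-like, microglia-like and endothelial-like. Other named classes, among them mural and leptomeningeal-like (138 nuclei) and Cajal-Retzius-like (219 nuclei), were not ranked in any comparison here. Over the 9 classes, 27 of the 37 members had their highest mean level in endothelial-like nuclei, the smallest of the 9 with 366 of 56834 nuclei. Microglia-like nuclei were highest for 4 members, CA2/3-like and oligodendrocyte-like nuclei for 2 each, and DG-like and oligodendrocyte precursor-like nuclei for 1 each. The share of all genes with their highest mean in each class was not computed, so these counts are not read as an excess. The order rests on few UMIs for some members. With every nucleus thinned to 500 UMIs, 18 members were highest in endothelial-like, 12 in microglia-like and 3 in CA2/3-like nuclei. In 8 members (H2-D1, Irf8, Ifnar1, Eif2ak2, Ifih1, Trim25, Parp14 and Ifi35) no pool of the highest class overlapped a pool of the class second by mean. These were singled out after their values were seen. Classes with lower means were left out of this count, and the share over all genes was not computed. Endothelial-like nuclei also held 1396 to 3879 CPM of neuronal marker transcripts, against 5664 to 6745 CPM in all nuclei, and the part of RNA from other cells in these levels was not tested.

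**Figure D2:**
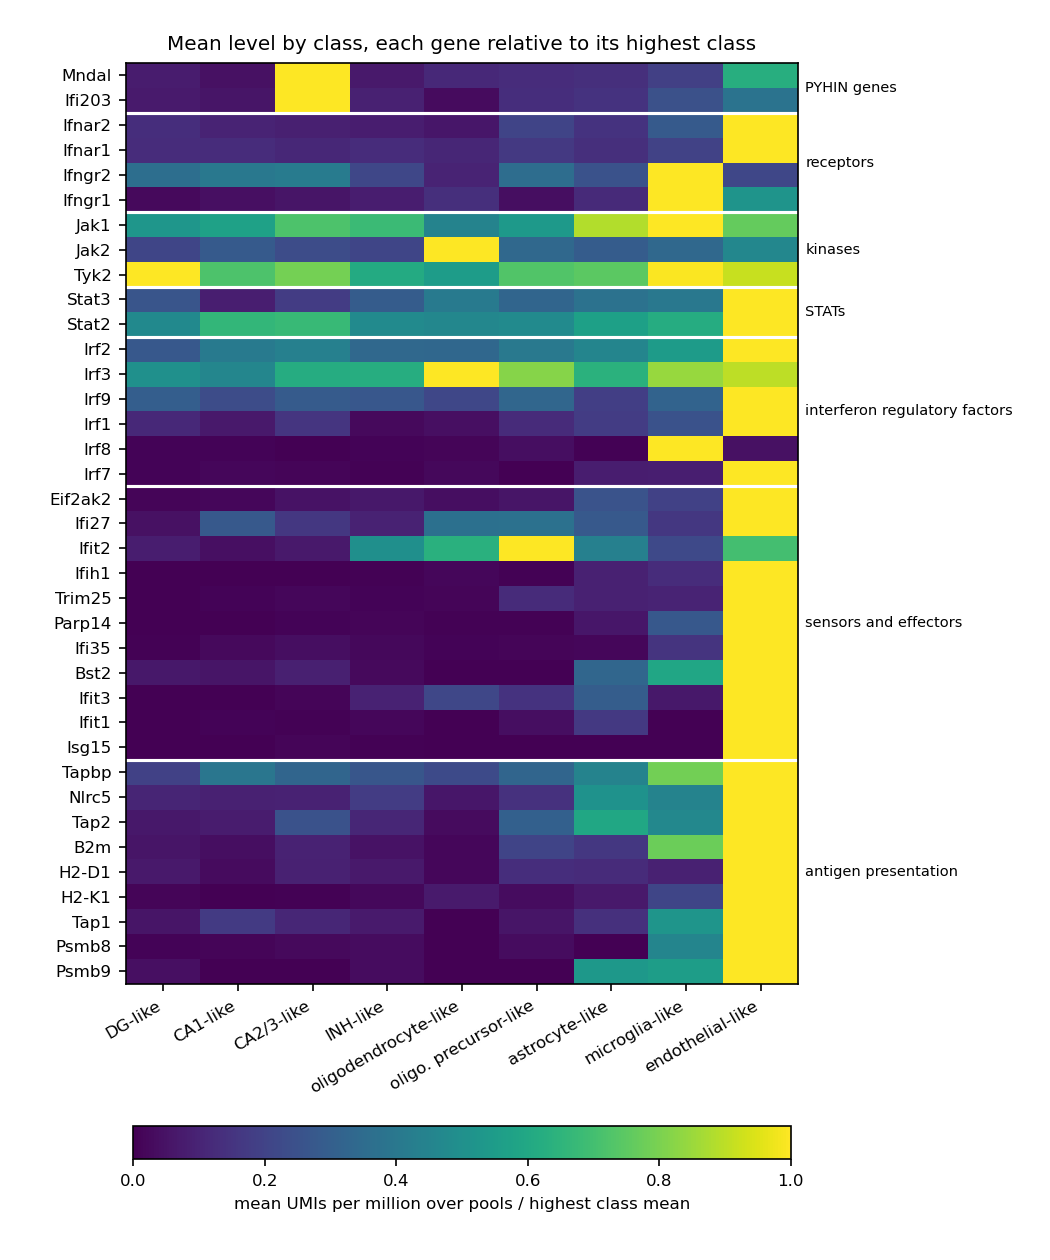
Mean level of each of the 37 members in each of the 9 classes compared, scaled within each gene to its highest class. Members are grouped by role, and 27 of the 37 were highest in endothelial-like nuclei. The share over all genes was not computed.

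The receptors divided between endothelial-like and microglia-like nuclei. Ifnar2, a chain of the type I interferon receptor, measured 178 ± 101 CPM (SD, n = 7) in endothelial-like nuclei, 50.5 ± 24.5 (n = 6) in microglia-like nuclei and 23.2 ± 4.35 (n = 8) in DG-like nuclei. Its partner chain Ifnar1 measured 137 ± 78.5 CPM in endothelial-like nuclei, where the lowest pool (84.2) was above the highest microglia-like pool (35.0). Ifngr2, a chain of the interferon gamma receptor, was highest in microglia-like nuclei at 34.8 ± 12.8 CPM, followed by CA2/3-like nuclei at 14.5 ± 2.42. Its partner Ifngr1, singled out after its values were seen, measured 30.3 ± 17.5 CPM in microglia-like nuclei. Ifnar1 stood between 15.1 and 18.5 CPM on average in astrocyte-like nuclei and the 4 hippocampal neuron classes, and its pools overlap there.

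In all nuclei, no receptor was called for RSD. Ifnar2 measured 18.8, 18.8, 18.1 and 17.3 CPM in the control pools of the vehicle, PLX5622, IL-1R1+/+ and nIL-1R1-/- pairs and 23.03, 25.7, 16.0 and 16.5 in the stress pools. Ifnar1 measured 20.3, 14.5, 17.0 and 16.8 CPM in control and 19.7, 20.2, 18.3 and 18.7 in stress pools. Ifngr2 measured 13.8, 11.4, 11.8 and 11.04 CPM in control and 13.6, 9.82, 11.4 and 11.2 in stress pools. The groups overlap for each of the 3. The fitted log2 RSD differences of the 4 receptors ran from -0.08 to 0.19, with a smallest adjusted p of 0.661 (edgeR). Of all genes tested in all nuclei, 0.343% were called for RSD.

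The kinases were found in every class. Jak1, which serves both interferon receptors, measured 130 ± 37.9 CPM in microglia-like, 115 ± 15.4 in astrocyte-like and 93.4 ± 8.99 in CA2/3-like nuclei, and the pools of these classes overlap. Jak2, which pairs with the interferon gamma receptor, stood out in oligodendrocyte-like nuclei at 172 ± 44.3 CPM (n = 8, 110 to 229), against 35.8 to 58.4 CPM on average in the neuronal, precursor, astrocyte-like and microglia-like classes. The highest pool of these classes reached 80.7 CPM, while endothelial-like nuclei, at 79.8 ± 32.6 CPM, overlapped the oligodendrocyte-like pools. Tyk2, the partner of Jak1 at the type I receptor, measured 38.0 ± 10.1 CPM in DG-like and 37.8 ± 7.17 in microglia-like nuclei and did not separate the classes.

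Jak2 in oligodendrocyte-like nuclei was lower in the stress pool of each pair, at 197 and 110 CPM in the vehicle pair, 229 and 112 in the PLX5622 pair, 179 and 176 in the IL-1R1+/+ pair and 219 and 156 in the nIL-1R1-/- pair. Control and stress pools did not overlap, though the closest were 179 and 176 CPM, both in the IL-1R1+/+ pair. The share of all genes that separate in this way was not computed. Of the members with at least 40 UMIs in a pair, 1 had a counting interval below 0 in the vehicle pair and 0 in each genotype pair. In the PLX5622 pair 0 members had 40 UMIs in this class. The fitted difference was log2 -0.44 ± 0.20 (SE, adjusted p = 0.760, edgeR) and was not called.

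In all nuclei, Jak1 measured 87.2, 70.3, 80.8 and 79.5 CPM in the control pools of the vehicle, PLX5622, IL-1R1+/+ and nIL-1R1-/- pairs and 79.6, 81.4, 80.1 and 84.2 in the stress pools. Jak2 measured 49.1, 49.1, 54.6 and 43.1 CPM in control and 41.1, 43.1, 60.2 and 58.1 in stress pools. Tyk2 measured 29.1, 23.7, 24.2 and 27.0 CPM in control and 37.7, 32.3, 26.2 and 27.3 in stress pools. Tyk2 was higher in the stress pool of all 4 pairs, while the other kinases moved both ways. Tyk2 had a fitted RSD difference of log2 0.20 ± 0.11 (SE, adjusted p = 0.441, edgeR) and was not called.

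Stat3, which relays signals of cytokine and growth factor receptors, was the only member that passed the test in any comparison, and it did so in endothelial-like nuclei. It measured 70.2, 48.7 and 55.5 CPM in Control-Vehicle, Con-IL-1R1+/+ and Con-nIL-1R1-/- and 141, 188, 211 and 224 CPM in Stress-Vehicle, Stress-PLX5622, Stress-IL-1R1+/+ and Stress-nIL-1R1-/-. Every stress pool was above every control pool that entered the fit, and the share of all genes that separate in this way was not computed. Control-PLX5622 held 19 endothelial-like nuclei and 15480 UMIs, with 0 UMIs of Stat3, and was left out for having fewer than 20 nuclei. Stress-PLX5622 thus had no control pool and was fitted by its own pair term, so the difference rests on the other pairs. Without the PLX5622 pair it was also log2 1.84. In the fit of 7 pools, with 2 residual degrees of freedom, the RSD difference was log2 1.84 ± 0.35 (SE). Its adjusted p was 0.0438 (edgeR's quasi-likelihood test, Benjamini-Hochberg over the 5371 genes tested in the class). Of these genes, 7 (0.13%) were called higher with stress.

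The Stat3 difference rests on 4 to 70 UMIs per pool, from 3 to 30 nuclei. By pair it was log2 1.01 (-0.58 to 3.02) in the vehicle pair, 2.11 (1.24 to 3.09) in the IL-1R1+/+ pair and 2.01 (1.18 to 2.89) in the nIL-1R1-/- pair. Between genotypes it was 0.19 (-0.91 to 1.33) in control and 0.09 (-0.52 to 0.68) in stress pools. Summed endothelial markers (7 of 7 detected) in these nuclei were 6518 to 11043 CPM in the control and 11975 to 15740 in the stress pools, neuronal markers (6 of 6) 1680 to 3879 and 1396 to 2041 CPM, and microglia markers 101 to 199 and 135 to 199 CPM. Their part in the Stat3 difference was not tested. The call was lost in DESeq2 (log2 1.77), with library size alone (1.87), without doublets (1.84) and without the IL-1R1+/+ pair (1.62). Stat3 overlaps Stat5a on the opposite strand, and their reads cannot be told apart without the strand.

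**Figure D3:**
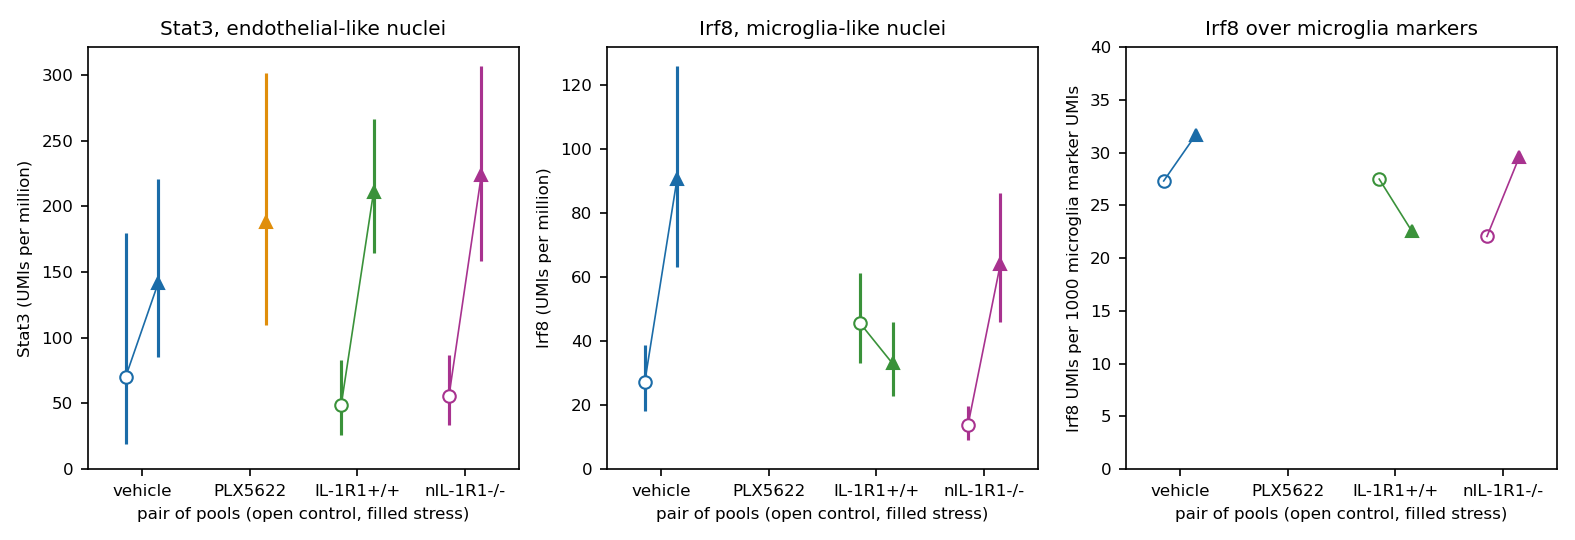
Stat3 in endothelial-like nuclei (left), Irf8 in microglia-like nuclei (middle, both in CPM with 95% counting intervals), and Irf8 UMIs per 1000 UMIs of microglia markers in the same nuclei (right). Lines join the pools of a pair. Stat3 was 48.7 to 70.2 CPM in control and 141 to 224 CPM in stress pools, while Irf8 was higher with stress in 2 of 3 pairs.

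Outside the endothelial-like class, Stat3 was lowest in CA1-like nuclei at 11.4 ± 3.14 CPM and measured 35.2 ± 7.75 in DG-like and 39.02 ± 6.97 in INH-like nuclei. The highest CA1-like pool (16.5) was below the lowest DG-like pool (22.3). In all nuclei Stat3 measured 27.6, 25.5, 30.03 and 22.9 CPM in the control pools of the vehicle, PLX5622, IL-1R1+/+ and nIL-1R1-/- pairs and 33.1, 34.9, 31.6 and 30.6 in the stress pools. Each stress pool was above each control pool, though the share of all genes that separate in this way was not computed. The fitted RSD difference was log2 0.26 ± 0.10 (SE, adjusted p = 0.290, edgeR). Stat2, the STAT of type I interferon signaling, measured 27.2, 20.4, 25.2 and 24.3 CPM in these control pools and 38.8, 40.5, 23.9 and 25.1 in the stress pools. It was higher with stress in the 2 diet pairs, by log2 0.51 (0.37 to 0.66) and 0.99 (0.71 to 1.28), and the intervals of the 2 genotype pairs held 0. The fitted value was 0.31 ± 0.14 (SE, adjusted p = 0.361, edgeR).

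Among the interferon regulatory factors, Irf2, which competes with Irf1 at shared elements, was present in every class. It measured 347 ± 96.0 CPM in endothelial-like nuclei, 191 ± 41.6 in microglia-like nuclei, 152 ± 14.1 in CA2/3-like nuclei and 95.3 ± 9.59 in DG-like nuclei. Every CA2/3-like pool (126 to 167) was above every DG-like pool (84.0 to 116). Irf3, which switches on interferon genes after sensors have bound RNA or DNA, measured 22.1 ± 7.42 CPM in oligodendrocyte-like nuclei and 19.9 ± 16.5 in endothelial-like nuclei. Irf9, the DNA-binding partner of the STATs, measured 21.8 ± 14.2 CPM in endothelial-like nuclei and 4.01 to 7.17 on average in the other classes. Irf8, a factor that microglia need for their identity, was singled out after its values were seen and measured 45.6 ± 27.8 CPM (n = 6) in microglia-like nuclei and 2.00 ± 4.15 in endothelial-like nuclei. Microglia-like nuclei held 224 of its 360 UMIs.

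In all nuclei, Irf2 measured 138, 127, 135 and 119 CPM in the control pools of the vehicle, PLX5622, IL-1R1+/+ and nIL-1R1-/- pairs and 142, 121, 144 and 145 in the stress pools. Irf3 measured 12.3, 6.93, 12.9 and 8.28 CPM in control and 14.3, 11.8, 14.9 and 11.7 in stress pools. Irf9 measured 6.38, 7.45, 4.45 and 3.36 CPM in control and 7.72, 6.37, 7.64 and 5.34 in stress pools. Irf3 was higher in the stress pool of all 4 pairs, and the control and stress groups of all 3 factors overlap. The fitted RSD differences of the 5 factors tested ran from log2 0.05 to 0.70, with a smallest adjusted p of 0.226 (edgeR), and Irf7 had 38 UMIs in all and was not tested.

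Among the sensors and effectors, levels stood out in endothelial-like nuclei for Eif2ak2, Trim25 and Ifih1 but not for Ifit2. Eif2ak2, the kinase that stops translation on double-stranded RNA, measured 69.6 ± 19.6 CPM (n = 7) in endothelial-like nuclei, 17.9 ± 6.84 in astrocyte-like nuclei and 0.991 ± 0.721 in DG-like nuclei. Trim25, a ubiquitin ligase of RNA sensing, and Ifih1, a sensor of double-stranded RNA, were singled out after their values were seen and measured 68.2 ± 29.0 and 67.4 ± 40.6 CPM in endothelial-like nuclei. In neuronal nuclei Trim25 measured 0.582 ± 0.264 CPM and Ifih1 0.608 ± 0.167. Ifi27, a small membrane protein induced by interferon, measured 16.5 ± 14.6 CPM in endothelial-like nuclei. These held 3.19% of its UMIs and neuronal nuclei 73.3%, and when thinned Ifi27 was highest in oligodendrocyte precursor-like nuclei. Ifit2, which binds foreign RNA, had only 339 UMIs in all nuclei, and its mean of 7.72 ± 7.602 CPM in oligodendrocyte precursor-like nuclei overlapped that of every other class. Isg15, Ifit1, Ifit3 and Bst2 had 19 to 46 UMIs each. The Ifit genes are paralogs, and whether reads were split between them was not tested.

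In all nuclei, Eif2ak2 measured 2.79, 1.96, 3.57 and 3.39 CPM in the control pools of the vehicle, PLX5622, IL-1R1+/+ and nIL-1R1-/- pairs and 3.497, 5.31, 3.98 and 3.22 in the stress pools. Ifi27 measured 4.21, 1.83, 1.59 and 1.88 CPM in control and 3.23, 2.79, 1.67 and 1.55 in stress pools. Ifit2 measured 1.52, 1.44, 2.09 and 1.33 CPM in control and 0.792, 1.99, 1.71 and 1.55 in stress pools. None of the 3 moved one way in all pairs. Of the 10 sensors and effectors tested, 8 had a fitted RSD difference above 0, from log2 -0.17 to 1.03, and the smallest adjusted p was 0.0745 (edgeR). That smallest value was of Trim25, singled out for it, which measured 0.827, 1.44, 1.03 and 0.844 CPM in control and 2.05, 3.05, 2.13 and 1.51 in stress pools. Every stress pool of Trim25 was above every control pool, and the share of all genes that separate in this way was not computed.

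All 9 antigen presentation genes had their highest mean in endothelial-like nuclei, but in all except H2-D1 its pools overlapped those of the second class. With every nucleus thinned to 500 UMIs, B2m, H2-K1, Tapbp and Psmb8 were highest in microglia-like nuclei instead. Tapbp, the chaperone that holds MHC class I at the peptide transporter, measured 15.2 ± 12.001 CPM in endothelial-like and 11.99 ± 6.89 in microglia-like nuclei. Nlrc5, the transactivator of MHC class I genes, measured 23.7 ± 14.5 CPM in endothelial-like nuclei and 2.20 to 4.22 on average in the 4 hippocampal neuron classes. Tap2, a chain of the peptide transporter, measured 16.7 ± 11.1 CPM in endothelial-like, 9.94 ± 5.74 in astrocyte-like and 4.18 ± 1.31 in CA2/3-like nuclei. The class I heavy chain H2-D1, singled out after its values were seen, measured 20.2 ± 8.26 CPM in endothelial-like nuclei, all 7 pools above all pools of oligodendrocyte precursor-like nuclei, the second class, though an astrocyte-like pool reached 15.8. It measured 0.627 to 1.85 CPM on average across the 4 hippocampal neuron classes. H2-D1 and H2-K1 are paralogs, and their split is uncertain where a read matches both.

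In all nuclei, Tapbp measured 4.52, 6.80, 4.18 and 3.55 CPM in the control pools of the vehicle, PLX5622, IL-1R1+/+ and nIL-1R1-/- pairs and 5.35, 7.03, 4.12 and 4.24 in the stress pools. Nlrc5 measured 2.51, 6.80, 2.65 and 1.77 CPM in control and 2.51, 5.44, 3.13 and 3.06 in stress pools. Tap2 measured 2.53, 1.57, 1.62 and 2.38 CPM in control and 2.44, 5.04, 1.92 and 1.63 in stress pools. Control and stress groups overlap in each. H2-D1 measured 1.09, 0.915, 1.30 and 0.844 CPM in control and 3.63, 2.52, 1.39 and 0.856 in stress pools, and its difference was thus carried by the 2 diet pairs, at log2 1.74 (1.14 to 2.36) and 1.46 (0.15 to 2.96). All 7 antigen presentation genes tested had a fitted RSD difference above 0, from log2 0.11 to 1.098, and the smallest adjusted p was 0.213 (edgeR). Psmb8 and Psmb9, subunits of the immunoproteasome, had 36 and 14 UMIs and were not tested.

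Across the members, most fitted RSD differences lay above 0 in all nuclei, and about as many lay above as below 0 in neuronal nuclei. In all nuclei 33 of the 37 members had at least 40 UMIs and were tested, and 28 of these had a fitted difference above 0, with a median of log2 0.26 against -0.0036 over all genes tested. None was called (edgeR), and 8 had an unadjusted p under 0.05, all of them higher with stress. DESeq2 also called 0 and put 6 under 0.05. Over all 20997 genes, 72 (0.343%) were called and 14.2% had an unadjusted p under 0.05. For the counts of unadjusted p under 0.05 in the paragraphs below, the share over all genes is not given. Those counts are not read as an excess.

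In neuronal nuclei 29 members were tested, 15 lay above 0, and the median was log2 0.01 against -0.0022 over all genes. Over the same 29 members, 24 lay above 0 in all nuclei, with a median of 0.20. None was called in neuronal nuclei (edgeR and DESeq2), with 2 under an unadjusted p of 0.05 in edgeR, where 9 of 19979 genes (0.045%) were called. Class by class, Stat3 was the 1 member called among the 160 calls in 92451 tests (0.173%). The difference between all and neuronal nuclei was itself not tested.

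**Figure D4:**
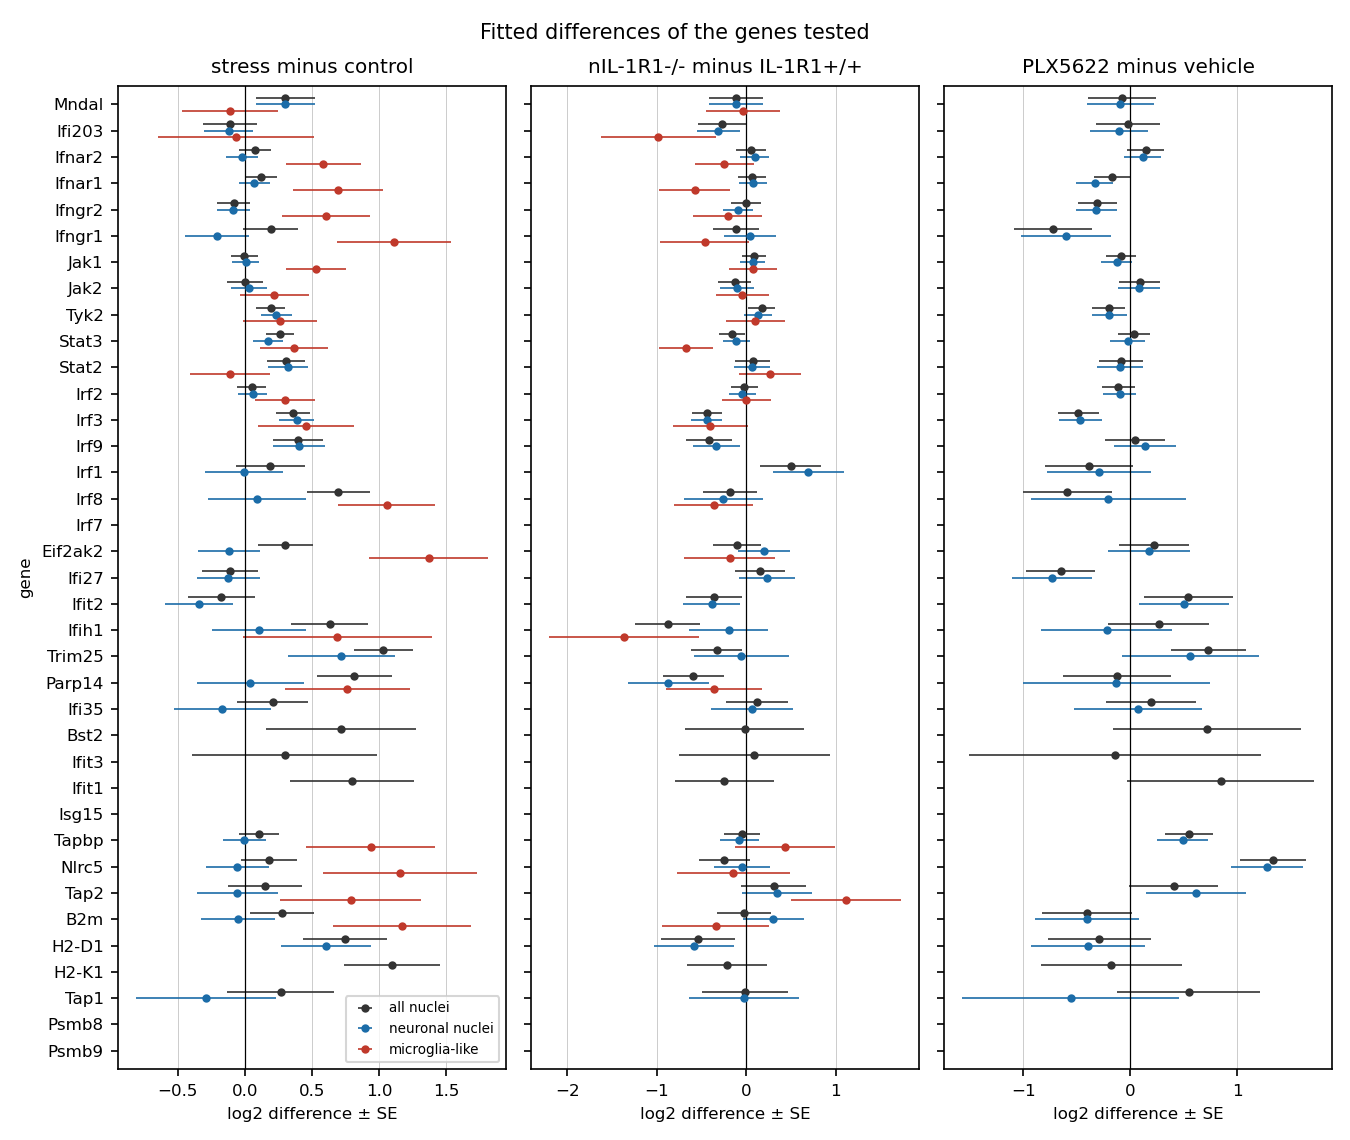
Fitted log2 differences of the members (rows) in all nuclei (black), neuronal nuclei (blue) and microglia-like nuclei (red), with bars of 1 SE, for stress minus control, nIL-1R1-/- minus IL-1R1+/+, and PLX5622 minus vehicle. Members without a point were not tested. Of 33 members in all nuclei 28 lay above 0 with stress, and 15 of 29 in neuronal nuclei.

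Endothelial transcripts moved with these sums. The 7 endothelial markers, all detected in every pool, summed to 39.3 and 134 CPM in the control and stress pool of the vehicle pair, 51.8 and 223 in the PLX5622 pair, 104 and 188 in the IL-1R1+/+ pair and 59.4 and 104 in the nIL-1R1-/- pair. Endothelial-like nuclei were 0.389% and 0.641%, 0.257% and 0.781%, 0.860% and 0.9901%, and 0.553% and 0.794% of the nuclei in these pairs. The part of the number of endothelial-like nuclei in the members' differences was not tested. Within endothelial-like nuclei, 6 of 13 members tested lay above 0 with stress, with a median of log2 -0.02.

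The other genes of the pathway gave a like picture in all nuclei. Of 99 listed interferon pathway genes that are not members, 97 were present and 62 were tested in all nuclei, and 48 of these had an RSD difference above 0, with a median of log2 0.25. Herc6, an interferon-induced ligase gene, was the only one called in edgeR, at log2 0.82 ± 0.14 (SE, adjusted p = 0.0430). DESeq2 called 3 for RSD, which were Herc6, Calr and Sp100, all higher with stress. In that fit 286 of 20997 genes (1.36%) were called, against 0.343% in edgeR. DESeq2 also called Calr in neuronal nuclei (log2 0.64), where 1.11% of all genes were called. None was called for genotype or diet in all nuclei (edgeR and DESeq2), with 2 and 6 of the 62 at an unadjusted p under 0.05 in edgeR.

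In microglia-like nuclei, 18 of 21 members tested were above 0 with stress, with a median of log2 0.61 over 6 pools, since the PLX5622 pools were left out. None was called in edgeR, where 0.237% of the 10121 genes tested were called at an adjusted p under 0.05. Before adjustment 6 members had an edgeR p under 0.05, among them Eif2ak2 at log2 1.37 ± 0.44 (SE, adjusted p = 0.211). The shares of all genes above 0 and under that unadjusted p in this class are not given here. Neither count of members was therefore set against a background. The summed level of the 8 microglia markers in the same nuclei moved too, with 990 and 2855 CPM in the control and stress pool of the vehicle pair, 1655 and 1458 in the IL-1R1+/+ pair and 621 and 2158 in the nIL-1R1-/- pair. Neuronal markers summed to 4785 to 6469 CPM in these nuclei, close to the 5664 to 6745 CPM of all nuclei. The part of neuronal RNA in these levels was not tested.

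By pair, the median CPM difference of the 21 members followed the marker level. It was log2 0.63 in the vehicle pair, 0.01 in the IL-1R1+/+ pair and 1.12 in the nIL-1R1-/- pair. Counted per UMI of microglia markers, the medians were -0.90, 0.19 and -0.67. Irf8 measured 27.0 and 90.5 CPM, 45.5 and 32.9, and 13.7 and 63.8 in the control and stress pools of the 3 pairs, and 27.3 and 31.7, 27.5 and 22.6, and 22.05 and 29.6 UMIs per 1000 marker UMIs. Irf8 thus differed far less between pools when set against the markers. Without the IL-1R1+/+ pair, 6 members were called in this class (Ifngr1, Ifngr2, Ifnar2, Tapbp, Jak1 and Irf8, at log2 0.78 to 2.08), with 1 residual degree of freedom. In that fit 1009 of 8773 genes (11.5%) were called, and 15 members were tested.

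Between genotypes, nIL-1R1-/- and IL-1R1+/+ pools gave no call among the members. In all nuclei 23 of 33 had a fitted difference below 0, with a median of log2 -0.10, and 2 had an unadjusted p under 0.05 in edgeR and 0 in DESeq2. In neuronal nuclei, which include the targeted glutamatergic neurons, 17 of 29 were below 0 with a median of -0.05, and 1 had an unadjusted p under 0.05. An unnamed neuronal cluster held 1529 nuclei of Con-IL-1R1+/+ and 23 of Con-nIL-1R1-/-. The medium spiny-like cluster held 247 of Stress-IL-1R1+/+ and 10 of Stress-nIL-1R1-/-. In the 4 hippocampal neuron classes, which leave both out, 0 members and 0 of 17962 genes were called (edgeR). Over all genes the edgeR test called 0 of 20997 (0%) in all nuclei and 0 of 19979 (0%) in neuronal nuclei, and 8 of 92451 tests class by class (0.00865%), none of a member. Summed endothelial markers in all nuclei were also lower in nIL-1R1-/- pools, at 59.4 against 104 CPM in control and 104 against 188 in stress pools, and their part in the members' values was not tested.

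The neuronal value with the smallest p was of Irf3, which was log2 -0.44 ± 0.18 (SE, unadjusted p = 0.0273) in nIL-1R1-/- neuronal nuclei, with an adjusted p of 1. In all nuclei Irf3 was lower in both states, by log2 -0.64 (-0.82 to -0.45) in control and -0.35 (-0.58 to -0.13) in stress pools. Irf3 overlaps Bcl2l12 on the opposite strand, and since the strand setting of the counting is not given in the sources used here, their reads cannot be told apart. The sensor Ifih1, singled out after its values were seen, was log2 -0.88 ± 0.37 (SE, adjusted p = 0.9999, edgeR) in all nuclei, with -1.01 (-1.60 to -0.43) in control and -0.87 (-1.55 to -0.22) in stress pools.

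PLX5622 against vehicle gave no call among the members either. In all nuclei 15 of 33 were above 0 with a median of log2 -0.08, and in neuronal nuclei 10 of 29 with a median of -0.10. In edgeR 3 of 33 and 2 of 29 had an unadjusted p under 0.05, and DESeq2 called 0 in all nuclei with 1 under 0.05. Over all genes 0 of 20997 (0%) and 0 of 19979 (0%) were called, and 36 of 82330 tests class by class (0.0437%), none of a member. The diet difference could not be estimated in microglia-like nuclei, since PLX5622 left 14 of them.

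Nlrc5 had the largest diet difference with the smallest p. It was log2 1.33 ± 0.31 (SE) in all nuclei, with an unadjusted p of 0.0012 and an adjusted p of 0.417 (edgeR). By pair Nlrc5 was higher with PLX5622 by 1.44 (0.92 to 1.94) in control and 1.12 (0.45 to 1.79) in stress pools, and in neuronal nuclei the fitted value was 1.28 ± 0.34 (adjusted p = 0.648). The PLX5622 values rest on 52 UMIs of Nlrc5 in Control-PLX5622 and 41 in Stress-PLX5622. Over the 4 sublibraries Nlrc5 ran from 2.95 to 11.9 CPM in Control-PLX5622 and from 4.16 to 6.45 in Stress-PLX5622. The PLX5622 pools were the shallowest of the series, so diet and depth cannot be told apart in the fit of all UMIs. With every nucleus thinned to 500 UMIs, which leaves out shallower nuclei, the fitted values were 1.18 in all nuclei and 1.26 in neuronal nuclei. The part of depth was not tested. In DG-like nuclei Mndal was higher with PLX5622 at log2 1.62 ± 0.47 (SE, adjusted p = 0.376, edgeR), with 4.97 and 22.96 CPM in Control-PLX5622 and Stress-PLX5622 and 3.48 and 6.53 in the vehicle pools. A shallow cluster held 811 of 1013 DG-like nuclei in Control-PLX5622 and 1296 of 1475 in Stress-PLX5622, against 458 of 1748 in Control-Vehicle and 872 of 1542 in Stress-Vehicle. Its part in this difference was not tested.

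Nuclei that carried several interferon-stimulated transcripts were rare. With 12 such genes (Ifit1, Ifit2, Ifit3, Isg15, Irf7, Ifi27, Bst2, Oasl2, Rsad2, Usp18, Rtp4 and Ifi44), 145 of 56834 nuclei (0.255%, 95% exact interval 0.215 to 0.300) held UMIs of at least 2. The share was 9.29% (34 of 366, 6.52 to 12.7) in endothelial-like nuclei, 0.925% (10 of 1081) in microglia-like nuclei and 0.139% (67 of 48324) in neuronal nuclei, with medians of 1773, 2189 and 1948 UMIs per nucleus. In oligodendrocyte-like nuclei it was 0 of 2013, with an upper bound of 0.183%, at a median of 866 UMIs. Within neurons the share was 0.585% in INH-like nuclei (35 of 5988, 0.407 to 0.812) and 0.00942% (1 of 10611) in DG-like nuclei. Their median depths were 2471.5 and 1589 UMIs, and the part of depth and free RNA was not tested. The intervals and the bound of these shares treat nuclei from all pools as independent. They hold counting error only and not the spread between pools, so differences between classes were not tested. Among the 145 nuclei, Rtp4 was found in 86, Ifi27 in 58 and Ifit2 in 49, and each other gene in 8 (Bst2) to 36 (Oasl2). INH-like nuclei held 111 of the 339 Ifit2 UMIs. The part of single genes in these shares was not tested, and a nucleus counted here need not hold an interferon response.

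By pool the share ran from 0.0271% in Control-PLX5622 to 0.630% in Con-nIL-1R1-/-, the pools with the lowest and the highest median depth, at 598 and 5012 UMIs. With every nucleus thinned to 500 UMIs it was 0.0123% (6 of 48821), with 3 of 990 microglia-like, 0 of 328 endothelial-like and 0 of 41744 neuronal nuclei. At this thinned depth such nuclei were detectable in neither endothelial-like nor neuronal nuclei.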

How the data were processed

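The authors counted UMIs per gene and nucleus (Parse split-pool libraries), and the deposited values are raw counts. Per the labels, mm39 and Seurat 4.1.1 were used. The 4 deposited libraries are sublibraries that each hold all 8 pools, and the deposited matrices are split by pool, which the labels name. Nuclei above 20% mitochondrial UMIs were removed. Nuclei were clustered with scanpy 1.11.5 (2000 variable genes without the members, 30 components, 15 neighbours, Leiden resolution 1.0, 29 clusters), and clusters were named from marker lists with thresholds set after the clusters were seen. Doublets (the top 6% of Scrublet scores) were kept, and leaving them out was an alternative. UMIs were summed per pool and class, leaving out pools under 20 nuclei and genes under 40 UMIs. On the same strand, Mndal overlaps Gm38050, Irf9 Rnf31, Tapbp Zbtb22, Ifnar2 Gm21970, Jak1 Gm12785, Nlrc5 Mir7072 and Parp14 Gm49730. Other members besides Stat3 and Irf3 overlap genes on the opposite strand, among them Ifi27 with Ifi27l2a. The part of overlapping genes in the levels of these members was not tested.

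Sums were tested with edgeR 4.0.16 (quasi-likelihood, TMM, limma 3.58.1), with the 4 pairs as a block and 3 residual degrees of freedom in all nuclei, Benjamini-Hochberg over all genes tested and a threshold of 0.05. The pair comes from the shared arm, and deviations of same-pair pools correlated at 0.252 to 0.456. The highest correlation of a control pool with a stress pool of another pair was 0.199 to 0.304. Each pair was above its own such value, but the ranges overlap, and the nIL-1R1-/- pair was close (0.332 against 0.295). DESeq2 1.42.0 was an alternative. The scripts were tested on simulated data. Each condition is 1 pool of 3 mice, so no condition has replicate pools. The error behind the p-values is what the pair terms and 1 common stress term leave over. A stress difference that depends on diet or genotype is counted in that error. edgeR also shares information on this error between all genes of a fit. A p-value thus does not rest on the residual degrees of freedom of its own gene alone. Genes named with values in every pool are Mndal, Ifi203, the 3 members with most UMIs of each role and every member called. The members and lists were chosen with earlier results of these data known.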

Additional observations from a re-analysis of the deposited data

Results flagged for a closer look

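Jak1 moved in opposite directions with stress under the 2 diets in all nuclei. The log2 difference of stress and control was -0.13 (95% counting interval -0.23 to -0.04) in the vehicle pair and 0.21 (0.04 to 0.38) in the PLX5622 pair. Each value is from 1 pool against 1 pool, and the difference between them was not tested.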

How the results depend on the processing

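With no filter on low counts, 1 member was called for RSD in all nuclei (Trim25) where 0 were otherwise, and 1 each for diet in all nuclei (Nlrc5), neuronal nuclei (Nlrc5) and class by class (Mndal, DG-like). Of all genes, 2.33%, 0.543%, 0.295% and 0.215% were called in these 4 fits. The number of members called for RSD class by class, 1 in the report, was 0 with DESeq2, 0 with library size alone, 0 without doublets and 2 with no filter. Leaving out 1 pair at a time gave 1 to 6, and the 6 came without the IL-1R1+/+ pair, in microglia-like nuclei, where 11.5% of all genes were called. The share of nuclei with interferon-stimulated transcripts was 0.0123% when thinned to 500 UMIs. Without the replicate block, Stat3 in endothelial-like nuclei was log2 1.77 (adjusted p = 0.0398, edgeR), and the pairing changed no other count of members called. The class with the highest level was the same for 37 of 37 members at Leiden resolution 2.0 and for 25 when thinned, where microglia-like nuclei were highest for 12 in place of 4. An alternative chosen after seeing the data used the 4 hippocampal neuron classes in place of all neuronal nuclei. The cause of these changes was not tested. Few UMIs limit most effectors and antigen presentation genes.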

Other observations

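Only 3 nuclei held at least 5 of the 12 interferon-stimulated genes, and all were from stress pools. A microglia-like nucleus of Stress-PLX5622 held 6 of them, with 17 UMIs of the list among 2858, and also 14 UMIs of Mndal and 13 of Ifi203. It held 5 UMIs of microglia markers and 6 of blood leukocyte markers. The others were endothelial-like, with 7 genes and 10 UMIs of 31692 in Stress-IL-1R1+/+ and 5 genes and 8 UMIs of 13044 in Stress-nIL-1R1-/-. The nucleus of Stress-IL-1R1+/+ held 150 UMIs of endothelial markers but also 139 of neuronal markers, and that of Stress-nIL-1R1-/- 157 and 9. All 3 nuclei were chosen after their values were seen.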
